A study of Rattus norvegicus with 6 samples.

Results

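The genes described here are 10 entries of the YAP/TEAD pathway, taken by name from a table of 26126 gene entries. They are the transcriptional coactivators Yap1 and Wwtr1 (which encodes TAZ), their DNA-binding partner Tead1, the feedback genes Lats2 and Amotl2, and the target genes Ctgf, Cyr61, Ankrd1, Thbs1 and Axl. Ctgf and Cyr61 carry the current RefSeq names Ccn2 and Ccn1. The genes were picked with results of the same comparison in view, so their own differences are given as a description and nothing is read from how many passed a test. RNA was sequenced from H9c2 cells, a single line derived from embryonic rat heart, after simulated ischemia-reperfusion, in which cells lay in an acidic buffer with lactate and 2-deoxyglucose under nitrogen. The 3 PERK libraries came from cells given an adenovirus for PERK, the endoplasmic reticulum kinase encoded by Eif2ak3, and the 3 control libraries from cells given a control adenovirus, whose insert the labels do not name. Both groups went through the ischemia protocol, so no library shows the genes without it. The labels do not say whether replicates were separate cultures, so the spread that p-values are set against may be technical.

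YAP and TAZ carry growth, stretch and cell-contact signals to the nucleus. They do not bind DNA alone and act through TEAD factors, which bind the motif GGAATG. The Hippo kinases MST and LATS phosphorylate YAP and TAZ and so hold them in the cytoplasm, and this regulation acts on the proteins and need not show in the RNA of either. Ctgf and Cyr61, which encode secreted matrix proteins of the CCN family, are their most widely used readouts. LATS2 and angiomotin-like 2 are inhibitors of YAP that are themselves YAP targets. In the heart, YAP is known for its part in growth and in survival after ischemia.

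The upstream sequences of Ctgf, Cyr61 and Thbs1 are shown because these genes had the largest rises among the 10 in the PERK libraries. Each run holds the 250 bases before the transcript start listed by RefSeq (build GRCr8), written 5′ to 3′ along the gene, and the capitals mark GGAATG or, where the motif lies on the opposite strand, CATTCC.
Ctgf (chr1:22624615-22624864, strand -): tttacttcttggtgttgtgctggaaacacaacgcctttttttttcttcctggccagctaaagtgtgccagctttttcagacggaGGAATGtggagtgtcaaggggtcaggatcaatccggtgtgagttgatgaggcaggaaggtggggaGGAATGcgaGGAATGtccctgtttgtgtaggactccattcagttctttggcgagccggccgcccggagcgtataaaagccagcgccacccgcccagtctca
Cyr61 (chr2:237225690-237225939, strand -): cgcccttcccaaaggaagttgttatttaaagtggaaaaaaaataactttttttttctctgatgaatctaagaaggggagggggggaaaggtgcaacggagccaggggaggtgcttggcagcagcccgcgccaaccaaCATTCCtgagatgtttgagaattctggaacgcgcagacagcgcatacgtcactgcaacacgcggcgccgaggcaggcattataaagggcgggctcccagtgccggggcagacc
Thbs1 (chr3:125510000-125510249, strand +): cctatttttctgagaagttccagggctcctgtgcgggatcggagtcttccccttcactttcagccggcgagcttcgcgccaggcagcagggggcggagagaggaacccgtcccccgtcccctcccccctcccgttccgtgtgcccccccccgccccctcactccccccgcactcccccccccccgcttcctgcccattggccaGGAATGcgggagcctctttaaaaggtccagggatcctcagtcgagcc

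Of the 10 genes, 7 had a RefSeq promoter window, and GGAATG occurred on either strand in 5 of the 7. These genes were picked as genes of the TEAD pathway, so that count is a description. The motif occurred in 10% of the 10137 first windows of tested genes and in 11.8% of 27457 windows of all genes. In the gene lists described below, it stood in 2 of 11 windows of further YAP targets and 5 of 16 of the Hippo kinase arm. It stood in 1 of 6 windows of TEAD paralogs and partners, 6 of 14 of SRF/MRTF genes and 1 of 14 of TGF-beta genes. Among paralogs of the targets and TAM genes it stood in 2 of 9. Ctgf held 3 matches, 166, 101 and 92 bases before the start, and 3 or more matches were found in 9 of the 10137 windows. Wtip, a gene of the Hippo kinase arm with a log2 fold change of 0.07 (SE 0.11), also held 3, at 229, 119 and 85 bases. Cyr61 had 1 match 113 bases before the start, Thbs1 had 1 at 47 bases, Amotl2 had 1 at 76 bases and Yap1 had 1 at 116 bases. The windows of Axl and Wwtr1 had none, which says only that these letters are not in those 250 bases. The starts listed for Amotl2, Axl and Yap1 lie inside the span of the gene, so their windows may not cover the start used in H9c2 cells. The matches are set out below in the direction in which each reads GGAATG, with 10 bases on either side and the motif in capitals; the Ctgf matches at 101 and 92 bases share a line.
Ctgf, 166 bases upstream (chr1:22624765-22624790, strand -): ttcagacggaGGAATGtggagtgtca
Ctgf, 101 bases upstream (chr1:22624700-22624725, strand -): aaggtggggaGGAATGcgaGGAATGt
Cyr61, 113 bases upstream (chr2:237225787-237225812, strand +): aaacatctcaGGAATGttggttggcg
Thbs1, 47 bases upstream (chr3:125510193-125510218, strand +): ccattggccaGGAATGcgggagcctc
Amotl2, 76 bases upstream (chr8:112182540-112182565, strand -): tgctatgccaGGAATGtgagagtttc
Yap1, 116 bases upstream (chr8:13451538-13451563, strand -): ggagtctgcaGGAATGtaacgacgcg

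In Ctgf and Thbs1 the motif continued as GGAATGCG, which occurred in 0.572% of the windows of tested genes and was searched after the sequences were seen. Of the further YAP targets, Ptpn14 and Nuak2 also held it (2 of 11 windows), with log2 fold changes of -0.11 (SE 0.05) and 0.05 (SE 0.09). Of the SRF/MRTF genes, Tpm1 held it (1 of 14 windows), with a log2 fold change of 0.13 (SE 0.04). Ctgf and Cyr61 also held TATAAA, read along the gene, 31 and 34 bases before the start, a motif in 4.4% of these windows. No window of the 7 held TGANTCA, the AP-1 motif (in 4.28% of windows), or a CArG box, the site of the factor SRF (in 1.23% of windows). A match to letters is a description and shows no binding.

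**Figure D1:**
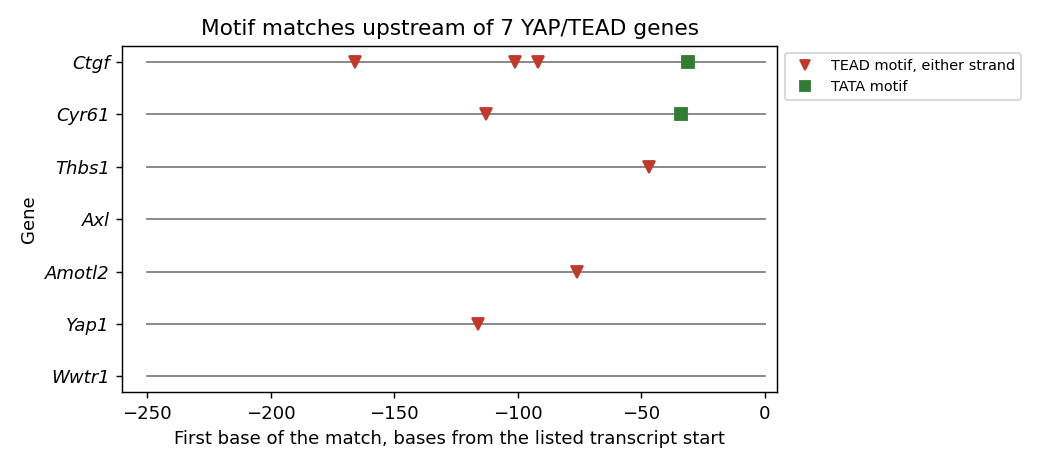
Motif matches in the 250 bases upstream of the listed transcript start of 7 YAP/TEAD genes. The x axis is the distance in bases from the start, triangles are GGAATG on either strand and squares are TATAAA along the gene. Ctgf has 3 triangles, Cyr61, Thbs1, Amotl2 and Yap1 have 1 each, and Axl and Wwtr1 have none.

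Total counts ran from 89798433 to 119087414 in the PERK libraries and from 77923398 to 111052659 in the control libraries. Control replicate 3 stood apart at low levels, with 19287 entries above 0 against 15377 to 16685 in the other 5 libraries. Eif2ak3, the gene that should check the label, was 26.5, 26.5 and 26.0 CPM (counts scaled to a common library total) in PERK replicates 1 to 3 and 26.4, 26.9 and 24.0 CPM in control replicates 1 to 3, so it does not show the overexpression and the groups rest on the labels. Of 7 myoblast markers, Myog, Myod1 and Myh3 were well expressed, while Myf5 had 0 counts in all 6 libraries. Des, Actc1 and Chrna1 were lower, averaging 5.23, 5.38 and 9.61 CPM in PERK and 5.48, 5.51 and 9.97 CPM in control. The cardiomyocyte genes Nppa and Nppb had 0 counts in all 6 libraries, and Myh6, Ryr2 and Tnni3 averaged under 1 CPM. These are bulk libraries, in which fewer cells of a type and less RNA per cell cannot be told apart. All 10 YAP/TEAD genes passed the low-count filter, with 1963 counts or more in every library.

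The secreted target genes were higher in the PERK libraries. Ctgf, a matricellular protein that promotes matrix production, was 668, 644 and 697 CPM in PERK replicates 1 to 3 and 504, 543 and 521 CPM in control replicates 1 to 3. Every PERK library lay above every control library, with means of 669.7 ± 26.6 CPM in PERK and 523 ± 19.5 CPM in control (SD, n = 3 each). The log2 fold change from edgeR was 0.36 (SE 0.04), a difference of 28.1%. Cyr61, a related integrin ligand, was 191, 192 and 195 CPM in the PERK libraries and 156, 157 and 150.2 CPM in the control libraries. The groups again did not overlap, and the PERK libraries were close to each other, with a coefficient of variation of 1.02% against 2.40% in control. The log2 fold change was 0.32 (SE 0.03), a difference of 24.7%. Thbs1 encodes thrombospondin 1, which binds matrix and activates latent TGF-beta, and it was 5203, 5046 and 5294 CPM in the PERK libraries and 4501, 4628 and 4618 CPM in the control libraries. Its groups did not overlap either, and the difference was smaller, with a log2 fold change of 0.18 (SE 0.03), or 13.1%.

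Axl, a receptor tyrosine kinase for the ligand GAS6, lay higher in the PERK libraries by less, and did not pass edgeR's test. It stood at 619, 627 and 623 CPM in PERK replicates 1 to 3 and at 559.7, 583 and 559 CPM in control replicates 1 to 3. The groups did not overlap, and the log2 fold change was 0.13 (SE 0.03), a difference of 9.78%. Gas6 itself had overlapping groups, with 303.7 ± 2.91 CPM in PERK and 308 ± 7.30 CPM in control (SD, n = 3 each). Counts of Axl per count of Gas6 were 2.06, 2.05 and 2.04 in the PERK libraries and 1.78, 1.89 and 1.86 in the control libraries, a quantity that does not depend on how libraries are scaled. The other receptors for GAS6 and its relative protein S had edgeR log2 fold changes of 0.12 (Tyro3, SE 0.12) and -1.50 (Mertk, SE 1.37, averaging 0.241 CPM or less in either group), and Pros1, which encodes protein S, had 0.01 (SE 0.04).

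Ankrd1, a nuclear ankyrin-repeat protein of striated muscle and a standard YAP readout, did not share the difference. It was 1852, 1765 and 1791 CPM in the PERK libraries and 1873, 1731 and 1784 CPM in the control libraries. The groups overlapped fully, and the log2 fold change was 0.01 with a 95% interval of -0.08 to 0.09. That interval lies below those of Ctgf (0.26 to 0.45), Cyr61 (0.24 to 0.40) and Thbs1 (0.11 to 0.24), and overlaps that of Axl (0.07 to 0.20). Counts of Ctgf per count of Ankrd1 were 0.360, 0.365 and 0.389 in the PERK libraries and 0.269, 0.314 and 0.292 in the control libraries. Counts of Cyr61 per count of Ankrd1 were 0.103, 0.109 and 0.109 in the PERK libraries and 0.0833, 0.0908 and 0.0842 in the control libraries. Neither ratio overlapped between the groups. The ratios here were chosen after values had been seen, so they restate the difference in a form that does not depend on scaling.

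The inhibitors that are also targets showed no separation. Amotl2, which holds YAP at cell junctions, was 197, 203 and 200.4 CPM in the PERK libraries and 216, 211 and 194 CPM in the control libraries. All 3 PERK values lay within the control range. Lats2, the kinase that phosphorylates YAP and TAZ, was 82.4, 83.9 and 84.7 CPM in the PERK libraries and 86.0, 81.7 and 74.6 CPM in the control libraries. Control replicate 3 was the lowest library for both genes, and without it the log2 fold change of Amotl2 was -0.09 in place of -0.05 and that of Lats2 was -0.0028 in place of 0.05. Their replicate spread was wider in control than in PERK, with coefficients of variation of 1.70% in PERK and 5.55% in control for Amotl2, and of 1.41% in PERK and 7.13% in control for Lats2.

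Of the coactivators, Yap1 overlapped between the groups, while Wwtr1 lay lower in the PERK libraries without passing edgeR's test. Yap1 was 72.6, 75.3 and 77.9 CPM in the PERK libraries and 76.0, 75.6 and 76.8 CPM in the control libraries. The groups overlapped, and the log2 fold change was -0.02 with a 95% interval of -0.12 to 0.08. Wwtr1 was 42.4, 42.3 and 41.3 CPM in the PERK libraries and 45.4, 49.5 and 45.0 CPM in the control libraries. Every PERK library lay below every control library, and control replicate 2 was the highest. The log2 fold change was -0.15 (SE 0.05), a difference of -9.96%, opposite in sign to those of Ctgf, Cyr61, Thbs1 and Axl. Counts of Wwtr1 per count of Yap1 were 0.584, 0.562 and 0.531 in the PERK libraries and 0.598, 0.655 and 0.587 in the control libraries. The highest PERK ratio lay just under the lowest control ratio.

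**Figure D2:**
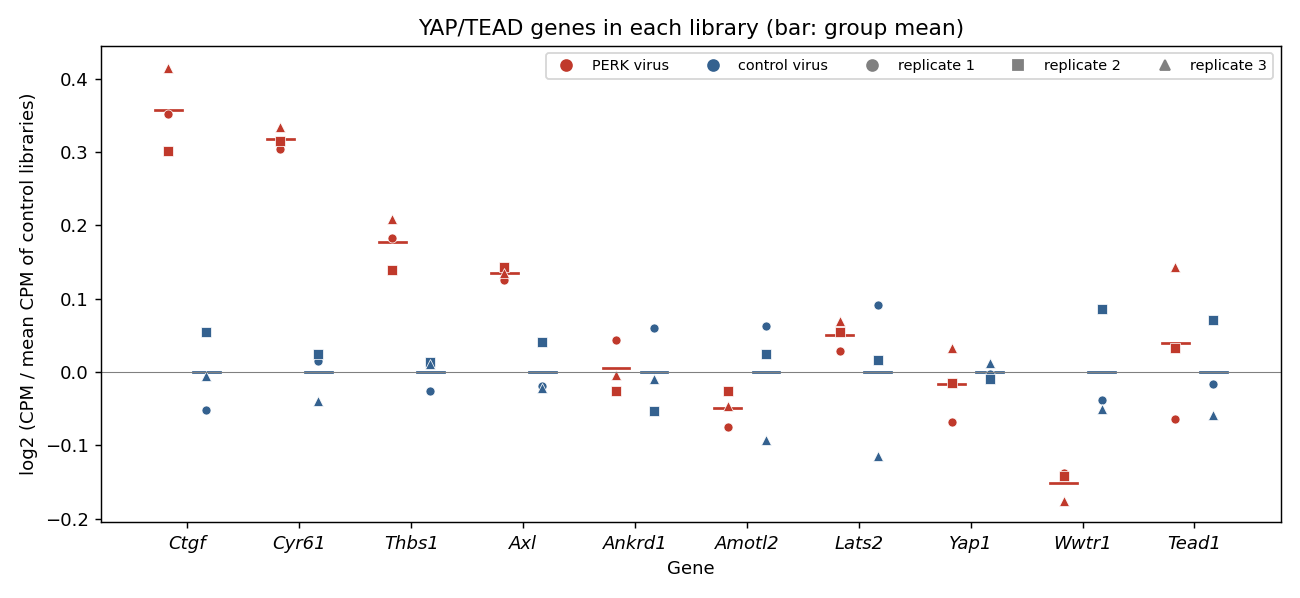
Level of each of the 10 YAP/TEAD genes in each library, as log2 of its CPM over the mean CPM of the 3 control libraries. Red points are PERK and blue points control libraries, marker shapes are replicates and bars are log2 of the group mean. Ctgf, Cyr61, Thbs1 and Axl lie above all control libraries, Wwtr1 lies below them, and the other 5 genes overlap.

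Tead1, the only TEAD gene among the 10, was 25.1, 26.8 and 29.0 CPM in the PERK libraries and 26.0, 27.6 and 25.2 CPM in the control libraries. The groups overlapped, and the log2 fold change was 0.04 (SE 0.06). Its paralogs differed in direction among themselves, though none passed the test over all entries. Tead2 was 33.3, 36.5 and 32.7 CPM in the PERK libraries and 40.9, 37.6 and 41.5 CPM in the control libraries (log2 fold change -0.23, SE 0.06, edgeR adjusted p = 0.198). Tead3 was 65.6, 70.3 and 68.4 CPM in the PERK libraries and 62.5, 61.0 and 54.6 CPM in the control libraries (log2 fold change 0.20, SE 0.06, edgeR adjusted p = 0.265). Tead4 was 25.1, 26.0 and 26.2 CPM in the PERK libraries and 21.5, 25.0 and 21.8 CPM in the control libraries (log2 fold change 0.18, SE 0.07, edgeR adjusted p = 0.372). The groups of Tead2, Tead3 and Tead4 did not overlap, which was so for 18.2% of all tested entries. Tead4 in control replicate 2 came within rounding of the lowest PERK library.

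**Figure D3:**
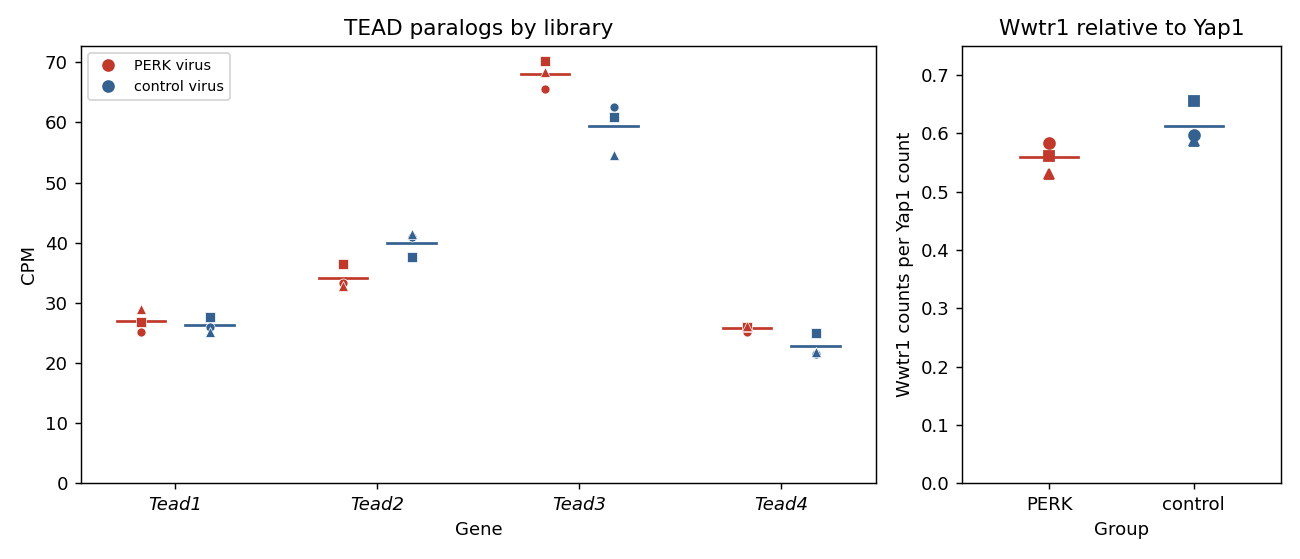
Left, CPM of the TEAD paralogs in each library, with group means as bars; CPM is not corrected for gene length, so heights compare libraries and not genes. Right, Wwtr1 counts per Yap1 count, from 0.531 to 0.584 in PERK and from 0.587 to 0.655 in control libraries.

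Of the 10 genes, 3 passed edgeR's test over all entries at an adjusted p of 0.05, all of them higher in PERK: Ctgf, Cyr61 and Thbs1. Over all 14488 tested entries 0.421% passed (61 entries): 0.311% were higher and 0.11% lower in PERK. Groups did not overlap for 5 of the 10 genes, 4 with PERK above and Wwtr1 with PERK below, against 18.2% of all tested entries (9.66% with PERK above and 8.55% with PERK below). As the genes were picked from this contrast, neither count says anything about the pathway. Leaving out control replicate 1, 2 or 3 gave counts of 2, 2 and 0 in place of 3, and leaving out PERK replicate 1, 2 or 3 gave 0, 1 and 0; each such fit has fewer libraries. The signs of the Ankrd1, Lats2, Yap1 and Tead1 differences changed in 1 or 2 of 14 alternatives; for the 5 genes whose groups do not overlap, the sign is nearly fixed by that. In the authors' deposited table, Ctgf and Cyr61 have an adjusted p under 0.05 (2 of the 10 genes), with log2 fold changes of 0.36 and 0.32, where 2.27% of 17483 entries do. The authors' deposited table gives Thbs1 the same size of log2 fold change, 0.18, with a larger standard error, 0.10, and an adjusted p of 0.498.

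**Figure D4:**
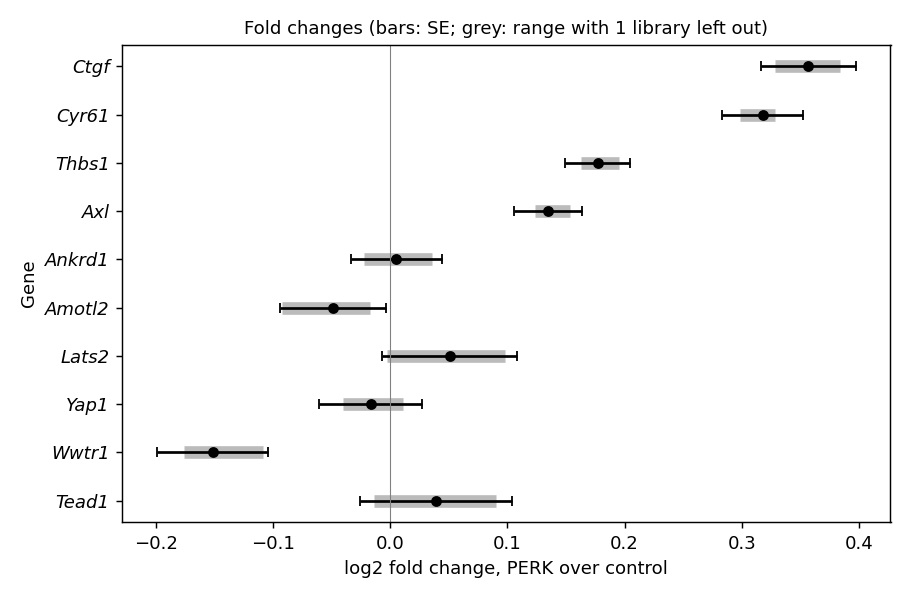
Log2 fold change of PERK over control for the 10 genes, with the standard error as bars and, in grey, the range over 6 fits that each leave out 1 library. Ctgf ranges from 0.33 to 0.38 and Wwtr1 from -0.18 to -0.11, while the ranges of Ankrd1, Lats2, Yap1 and Tead1 include 0.

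Other genes of the pathway, here and in the lists that follow, were taken from textbook knowledge, but with earlier results of these data known. Their counts are therefore descriptions and no independent support. In a list of 16 further YAP/TEAD target genes, 14 were tested and 0 passed edgeR's test, while 5 were higher and 1 lower at an unadjusted p under 0.05 (11.2% of all entries were under it in either direction). DESeq2 passed 3 of them, Crim1, Fjx1 and Myof, in a fit that passed 2.72% of all entries, and limma voom passed 1, Crim1, where it passed 0.759%. Of the 14, 12 had a log2 fold change above 0, as did 7061 of all 14488 tested entries. The median was 0.09 beside -0.0045 over all tested entries. Crim1, a transmembrane protein that binds growth factors, was 70.2, 74.8 and 77.1 CPM in the PERK libraries and 59.3, 62.5 and 57.7 CPM in the control libraries (log2 fold change 0.31, SE 0.05, edgeR adjusted p = 0.0647). Fjx1 had 0.41 (SE 0.11, edgeR adjusted p = 0.204), and both were named after their values were seen. Myof, which encodes the membrane repair protein myoferlin, was 738 ± 36.1 CPM in PERK and 651 ± 35.9 CPM in control (SD, n = 3 each; log2 fold change 0.18, SE 0.05). Ccdc80, a matrix protein, had a log2 fold change of 0.05 (SE 0.03), and Ptpn14, a phosphatase that restrains YAP, had -0.11 (SE 0.05).

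Of 8 TEAD paralogs and partners, all tested, 0 passed edgeR's test and 5 had an unadjusted p under 0.05 (3 higher, 2 lower). DESeq2 passed 3 (Tead2, Tead3 and Vgll3) and limma voom passed 1 (Vgll3). Over all tested entries, edgeR passed 0.421%, DESeq2 2.72% and limma voom 0.759%, and 11.2% had an unadjusted p under 0.05. Vgll3, a vestigial-like cofactor of TEAD, was 73.0, 71.0 and 75.0 CPM in the PERK libraries and 61.4, 61.7 and 62.5 CPM in the control libraries. The groups stood well apart, with a log2 fold change of 0.24 (SE 0.04, edgeR adjusted p = 0.0677). Vgll4, a cofactor of the same family that represses TEAD, differed the other way, with 21.4 ± 0.763 CPM in PERK and 24.7 ± 1.91 CPM in control (SD, n = 3 each; log2 fold change -0.21, SE 0.07, edgeR adjusted p = 0.292); it was named after its values were seen. Amot, the angiomotin that tethers YAP, had a log2 fold change of 0.04 (SE 0.04). In the Hippo kinase arm, 0 of 18 tested genes of 19 passed with edgeR, DESeq2 or limma voom, and the median was -0.02. An unadjusted p under 0.05 was found for 2 of the 18, about the 11.2% found over all tested entries. Map4k4 and Taok2, kinases that can activate LATS, had log2 fold changes of -0.07 (SE 0.03) and -0.03 (SE 0.04). In this list 8 genes had a log2 fold change above 0 and 10 below. The 2 with an unadjusted p under 0.05 were Taok3 (-0.44, SE 0.15) and Wwc2 (0.12, SE 0.04), named after their values were seen. Lats1, named after its values were seen, was 49.9, 47.6 and 50.3 CPM in the PERK libraries and 52.0, 53.4 and 51.5 CPM in the control libraries (log2 fold change -0.09, SE 0.04, edgeR adjusted p = 0.488).

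Several of the same target genes, Ctgf, Cyr61 and Ankrd1 among them, are also known to respond to the actin-regulated factors MRTF and SRF and to TGF-beta. In a list of 16 SRF/MRTF genes, 15 were tested, all 15 had a log2 fold change above 0, as did 7061 of all 14488 tested entries, and the median was 0.13 against -0.0045 over all entries. Of the 15, 3 rose past edgeR's test and 0 fell, where 0.311% of all entries were called higher and 0.11% lower. Vcl, which encodes the adhesion protein vinculin, was 550.5, 546 and 573 CPM in the PERK libraries and 461, 489 and 475 CPM in the control libraries (log2 fold change 0.23, SE 0.03, edgeR adjusted p = 0.0385). Fhl2, a LIM-domain cofactor, was 59.2, 61.9 and 62.2 CPM in the PERK libraries and 50.3, 48.4 and 50.5 CPM in the control libraries (log2 fold change 0.30, SE 0.04, edgeR adjusted p = 0.0365). Actg2, a smooth muscle actin whose sequence is close to other actins, so that its reads may be shared, rose by 0.24 (SE 0.03, edgeR adjusted p = 0.0286). Flna, the actin cross-linker filamin A, and Tagln, an actin-binding protein of contractile cells, had 0.13 (SE 0.03) and 0.09 (SE 0.04) and did not pass. None of the 3 passed when any single library was left out, while the median of the list stayed between 0.11 and 0.14 in those fits. A CArG box stood in 5 of the 14 SRF/MRTF genes with a promoter window (Srf, Acta1, Cnn2, Fhl1 and Fhl2), against 1.23% of windows of tested genes. GGAATG stood in 6 (Vcl and Fhl2 among them), against 10%. Of the genes that passed, Fhl2 held a CArG box in its window, and Vcl and Actg2 did not. The list was drawn up as genes of SRF, whose site the CArG box is, so its CArG count is no separate support. Whether SRF had a part in the differences was not tested.

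Of 16 TGF-beta ligands, receptors, signal carriers and targets, all tested, 0 passed edgeR's test, 4 had an unadjusted p under 0.05 (3 higher, 1 lower), DESeq2 passed 3 and limma voom passed 0. The median of the TGF-beta list was 0.03. Ltbp1 and Ltbp2, which hold latent TGF-beta in the matrix, had log2 fold changes of 0.17 (SE 0.03, edgeR adjusted p = 0.0992) and 0.05 (SE 0.04). Close relatives of the target genes were also looked up. Of 13 paralogs and TAM receptor genes 10 were tested, and 0 passed edgeR's test or limma voom. An unadjusted p under 0.05 was found for 1 of the 10, near the 11.2% of all tested entries, and DESeq2 passed that 1, Wisp2. Wisp2, a CCN protein that lacks the domain at the carboxyl end of its relatives, was 147 ± 3.83 CPM in PERK and 163 ± 4.37 CPM in control (SD, n = 3 each), with a log2 fold change of -0.15 (SE 0.04, edgeR adjusted p = 0.203). Its relative Wisp1 had 0.01 (SE 0.04). Thbs2 and Thbs3 had log2 fold changes of -0.18 (SE 0.15) and -0.02 (SE 0.07).

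**Figure D5:**
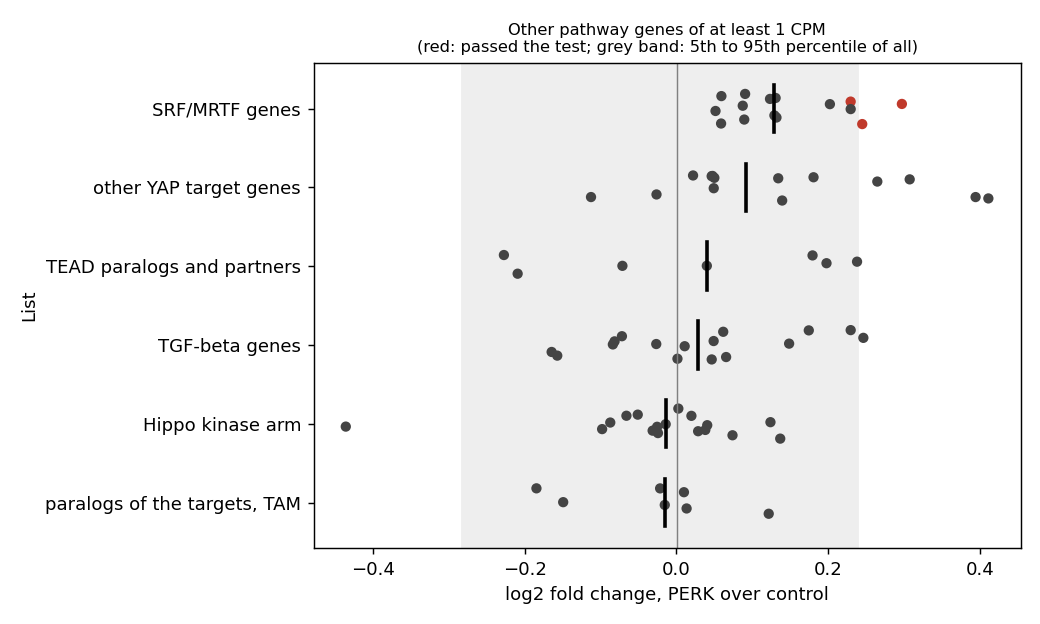
Log2 fold changes of PERK over control for other pathway genes of at least 1 CPM, by list, with the list median as a black bar and genes that passed edgeR's test in red. The grey band runs from -0.28 to 0.24, the 5th to 95th percentile of 11946 entries of at least 1 CPM; the 15 SRF/MRTF genes all lie above 0.

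The profiles most like that of Ctgf were sought among 9782 other entries of at least 5 CPM, by the root mean square difference of centred log2 CPM over the 6 libraries. The nearest were Itga3 (0.023), the integrin alpha 3 subunit, Akap12 (0.023), a scaffold for protein kinase A, and Trpc6 (0.045), a cation channel. Cyr61 came next at 0.048. Itga3 averaged 83.7 ± 2.43 CPM in PERK and 65.0 ± 2.84 CPM in control, and Akap12 averaged 143 ± 5.79 CPM in PERK and 113 ± 2.36 CPM in control (SD, n = 3 each). Thbs1 ranked 144 and Axl 404 of the 9782, while Ankrd1 ranked 4159 and Wwtr1 8173. The distance includes the difference between the groups, so these ranks largely restate the fold changes and are no separate evidence of shared regulation.

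The levels of cell type markers in the same libraries were as follows. The summed level of 7 myoblast markers was 603 to 634 CPM in PERK and 677 to 720.1 CPM in control libraries, with Myf5 at 0 throughout, and Myog, the factor myogenin, was 399.7 ± 9.25 CPM in PERK and 486 ± 10.2 CPM in control (SD, n = 3 each). Of the 6 myoblast markers tested, Myog was the 1 that passed edgeR's test and the 1 whose groups did not overlap. Over all tested entries 0.421% passed, and the groups of 18.2% did not overlap. Myh3 had a log2 fold change of 0.11. The sum of the smooth muscle markers was 91.8 to 98.6 CPM in PERK and 82.9 to 90.8 CPM in control, with log2 fold changes of 0.16 for Smtn and -0.08 for Myh11, neither past the test. The 5 fibroblast markers summed to 104 to 110.0 CPM in PERK and 109.8 to 112 CPM in control, with Pdgfra and Dpt under 1 CPM. Thy1 made up most of that sum, averaging 90.3 CPM in PERK and 89.2 CPM in control (log2 fold change 0.02). Lum and Dcn had log2 fold changes of -0.34 (SE 0.09) and -0.21 (SE 0.12), and none of the 5 passed edgeR's test. The 4 measured endothelial markers, with Cdh5, Kdr and Vwf under 1 CPM, summed to 0.638 to 0.919 CPM in PERK and 1.29 to 1.99 CPM in control. The 4 measured leukocyte markers summed to 9.98 to 11.0 CPM in PERK and 8.46 to 12.1 CPM in control, with Ptprc, Cd68 and Csf1r under 1 CPM. The 5 epithelial markers, with Epcam, Krt18 and Cdh1 under 1 CPM, summed to 53.2 to 54.3 CPM in PERK and 48.7 to 52.8 CPM in control. The part of these markers in the differences of the YAP/TEAD genes was not tested.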

How the data were processed

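Estimated counts per gene entry, deposited by the authors as whole numbers, were used as they stand for 3 PERK and 3 control libraries. Bowtie (version 0.12.2) and mm9, a mouse build, appear in the submitters' processing notes, although entries carry rat names. How counting was done, whether by strand, and on which build were not given in the sources used here. Of counts from 1 to 19, 36.7% to 41.1% per library were multiples of 6 or 1 above them, against 31.6% if spread evenly, so the number of independent fragments is unknown. The deposited normalized signal was left aside. Per the file headers, the authors' fit adds log2 fold changes with standard errors, a test score, and raw and adjusted p-values. Another 6 columns of per-sample values carry names that fit none of the labels and stayed out.

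Counts were scaled by TMM, filtered with filterByExpr (minimum count 10) and tested over all entries with edgeR 4.0.16 (quasi-likelihood fit, group as the only term, R 4.3.3) and Benjamini-Hochberg adjustment. CPM uses the scaled totals, standard errors were derived from edgeR's F statistics, and 95% intervals cover 1 gene at a time. DESeq2 1.42.0, limma voom 3.58.1 and further alternatives are given in the closing section. Steps were tested on simulated data.

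The genes, lists and marker sets were chosen with earlier results of these data known. Named genes were the 10 pathway genes, their TEAD paralogs, Eif2ak3, list members that passed, the 2 most abundant of each list, and the 5 profiles nearest to Ctgf; all other genes were named after their values were seen. A result that this rule takes is not reported here. Names were matched to RefSeq GRCr8 (12346 tested entries matched a gene), used only for names, neighbours and the printed upstream sequences, not for the counts. Uncharacterised RefSeq genes overlap Thbs1 (1) and Tead1 (2), and their reads may be shared.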

Additional observations from a re-analysis of the deposited data

How the results depend on the processing

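Over 14 alternatives the log2 fold change ran from 0.33 to 0.38 for Ctgf, 0.30 to 0.33 for Cyr61, 0.16 to 0.20 for Thbs1, 0.12 to 0.15 for Axl and -0.18 to -0.11 for Wwtr1. The 61 entries called became 94 without a filter, 394 with DESeq2, 110 with limma voom, 132 with a robust fit, 93 with counts divided by 6, and 12 to 38 with 1 library left out. The 3 YAP/TEAD genes called became 0 to 2 with 1 library left out, 2 with DESeq2 size factors or without a filter (Thbs1 not called), and 4 with DESeq2 (Axl added). Thbs1 was called in 5 of the 14. Called TEAD paralogs and partners, 0 in the first fit, numbered 3 with DESeq2 and 1 without a filter, with limma voom or with a robust fit. Further YAP targets, also 0, numbered 3 with DESeq2 and 1 without a filter, with limma voom, with a robust fit or with counts divided by 6. SRF/MRTF genes called, 3 in the first fit, numbered 8 with DESeq2 and 0 with any 1 library left out. TGF-beta genes, 0 in the first fit, numbered 3 with DESeq2 and 1 with a robust fit, and paralogs of the targets, also 0, numbered 1 with DESeq2. Across entries, the deviations of same-numbered libraries had r of -0.06, 0.01 and 0.03. Those of libraries with different numbers ran from -0.06 to 0.06. Entries of low count weigh as much as others in this check, so it does not settle whether the numbers pair libraries. With a replicate block 9 entries, 0 YAP/TEAD genes and 0 SRF/MRTF genes were called. The causes of these changes were not tested.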
